A study of Mus musculus with 3 samples.

Results

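Neutrophils rich in secondary granule transcripts but with few transcripts of cell division made up 3252 of the 25845 barcodes from CD45+ cells of newborn mouse liver. The class was chosen by measured values of 9 genes per barcode, in CPM, UMI counts per 1000000 UMIs of the barcode. Camp, Ngp and Ltf summed to at least 20000 CPM, Elane and Prtn3 to less than 5000 CPM, Mmp8 and Mmp9 to less than 4000 CPM, and Mki67 and Top2a to less than 400 CPM. Levels of these 9 genes in the class therefore describe the choice and are not results. The class held 1549 barcodes in the library labelled WT, 1223 in the library labelled Het and 480 in the library labelled KO.

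The study sorted viable CD45+ liver cells at postnatal day 0 from mice with both copies of Pex2 (pex2+/+), with 1 copy (pex2-/+) and with neither (pex2-/-), and counted RNA with gene-specific probes after fixation. Pex2 encodes a membrane protein of the machinery that imports enzymes into peroxisomes, and its loss in mice is a model of Zellweger disease. Each genotype had 1 library, so no difference between genotypes could be tested. How many animals stand behind a library was not found in the labels. Sets of 3 values follow the order WT, Het, KO, and every interval is a 95% interval that covers counting error only. The difference between the libraries labelled Het and WT is the only gauge of other differences between libraries. It also carries a copy of Pex2 and the Y-linked RNA given below.

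In granulopoiesis, promyelocytes first make the proteins of primary (azurophil) granules, such as myeloperoxidase and elastase. Myelocytes and metamyelocytes then make secondary (specific) granule proteins, such as lactoferrin and cathelicidin, and leave the cell cycle on the way. Tertiary (gelatinase) granule genes come on in the last stages, and the liver is a main site of this process around birth.

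Camp, Ngp and Ltf, which define the class, lie within 1.17 Mb of each other on chromosome 9. They encode the cathelicidin antimicrobial peptide, the neutrophilic granule protein and lactoferrin. Chil3, on chromosome 3, encodes the chitinase-like protein Ym1 and was the most abundant transcript past the 1.5-fold rule for KO given below. Transcription factors of the C/EBP family, which drive granule genes, bind sites related to TTGCNNAA. The RefSeq stretches before the starts of these 4 genes (GRCm38.p6) are shown because 3 of the genes define the class and Chil3 is described in detail below. They end where the first annotated transcript begins, and capitals mark TTGCNNAA on either strand. They cover chr9:109849618-109849706 (minus strand) for Camp, chr9:110419558-110419746 (plus) for Ngp, chr9:111019042-111019270 (plus) for Ltf and chr3:106167565-106167814 (minus) for Chil3.
Camp: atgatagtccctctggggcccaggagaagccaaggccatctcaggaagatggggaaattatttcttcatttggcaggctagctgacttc
Ngp: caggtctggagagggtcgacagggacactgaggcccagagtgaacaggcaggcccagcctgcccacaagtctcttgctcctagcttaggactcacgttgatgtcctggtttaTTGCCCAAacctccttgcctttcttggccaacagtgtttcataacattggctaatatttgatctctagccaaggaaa
Ltf: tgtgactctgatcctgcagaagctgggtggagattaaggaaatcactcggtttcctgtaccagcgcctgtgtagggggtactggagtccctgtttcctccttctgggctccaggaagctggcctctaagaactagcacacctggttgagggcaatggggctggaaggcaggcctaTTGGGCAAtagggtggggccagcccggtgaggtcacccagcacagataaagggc
Chil3: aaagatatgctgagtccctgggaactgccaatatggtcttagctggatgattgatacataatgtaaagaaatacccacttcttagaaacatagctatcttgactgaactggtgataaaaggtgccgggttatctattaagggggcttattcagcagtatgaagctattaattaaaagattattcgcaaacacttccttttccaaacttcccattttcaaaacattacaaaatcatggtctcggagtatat
In the whole 250 bases before the RefSeq start, Ngp held 2 matches, beginning at positions -138 and -11 from the start. Ltf held 1 match at position -75, and Lcn2, the gene of lipocalin 2, held 1 at position -216. Camp and Chil3 held 0. Of 32851 windows of that length in the table, 9.56% held a match, so these letters describe the windows and do not mark a binding site.

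Pex2 RNA bore out the label of the KO library and did not settle those of the other libraries. Pex2 gave 368, 1179 and 1 UMIs in the class (25.1, 59.5 and 0.0904 CPM). The library labelled Het thus held more Pex2 RNA than the library labelled WT, against the order of gene copies. An RNA level is no count of gene copies. Ddx3y, a Y-linked gene, gave 792, 2 and 0 UMIs, so Y-linked RNA was held almost wholly by the library labelled WT. Between WT and either other library, a difference by sex therefore cannot be told apart from one by genotype. Depth differed in the same order as the genotypes: members had a median of 8641, 15143 and 22320 UMIs and 2302, 3134 and 3732 genes. No whole barcode was shared between libraries. Scrublet marked 46, 29 and 14 members as doublets (2.97%, 2.37% and 2.92%).

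The neutrophil label held up on markers that the rule did not use. Olfm4 (olfactomedin 4), Cd177 (a surface glycoprotein stored in secondary granules) and Padi4 (the enzyme that citrullinates histones) were detected in each library. Their levels were 9958, 12955 and 8557 CPM for Olfm4, 325, 563 and 370 CPM for Cd177, and 453, 398 and 210 CPM for Padi4. Promyelocyte markers summed to 484, 435 and 188 CPM and monocyte markers to 123, 75.8 and 48.6 CPM. Mature neutrophil markers, with Mmp8 and Mmp9 of the rule among them, summed to 4203, 4321 and 5109 CPM. In mature barcodes that sum was 24432, 22034 and 18924 CPM. Olfm4 there was at 12167, 15916 and 8630 CPM, so it does not set the class apart from mature barcodes. Hepatocyte markers summed to 2.12, 2.83 and 2.62 CPM. Cd3e and Trac, which define T cells, were at 0 in each library, while Cd3d alone reached 303, 334 and 202 CPM. Both were also at 0 in the dividing granule-stage and mature barcodes of WT and KO. Cd3e was at 0 in all WT barcodes outside the class, so its absence says little about the class.

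The class was chosen for low Mki67 and Top2a, so low levels of other division genes follow in part from the choice. The 22 measured mitosis genes, a list without Mki67 and Top2a, summed to 276, 245 and 292 CPM in the class, against 4265, 4350 and 4078 CPM in granule-stage barcodes above the cell-cycle threshold. The 24 genes of S phase and replication summed to 1576, 1579 and 1197 CPM, against 4573, 4322 and 4035 CPM. Mcm2 to Mcm7 are genes of the replicative helicase, and Pcna encodes the sliding clamp of replication. Members with at least 200 CPM of these transcripts in sum made up 28.6%, 27.3% and 29.4% of the class.

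Members were 16.1% (15.4 to 16.9) of all barcodes in the library labelled WT, 15.3% (14.5 to 16.1) in Het and 5.82% (5.33 to 6.35) in KO. The KO share was 0.361 times that of WT (0.327 to 0.398) and 0.381 times that of Het (0.344 to 0.421), while Het was 0.947 times WT (0.884 to 1.01). Granule-stage barcodes above the cell-cycle threshold were 18.7%, 24.2% and 24.6% of all barcodes. Mature barcodes, with 4000 CPM or more of Mmp8 and Mmp9, were 28.1%, 20.6% and 37.3%, and promyelocyte-like barcodes 5.71%, 6.78% and 5.42%.

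**Figure D1:**
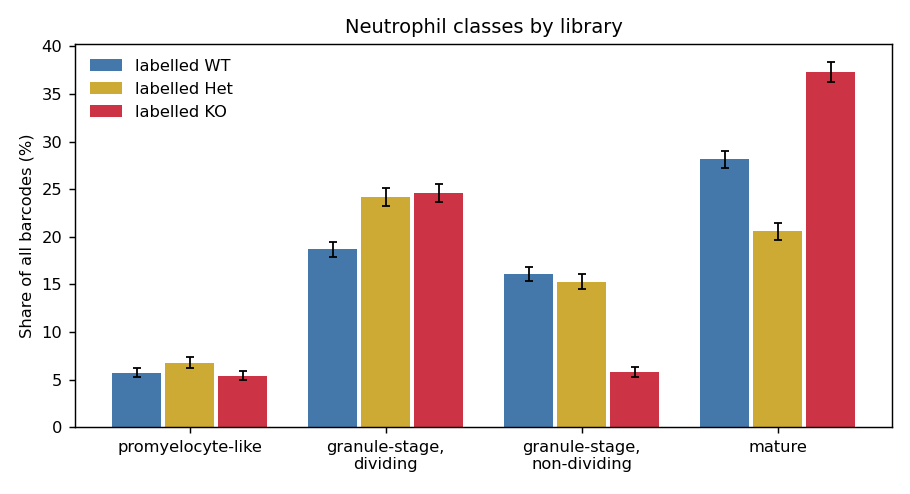
Bars give the share of all barcodes in each of 4 neutrophil classes (percent, y axis) for the libraries labelled WT, Het and KO, with exact 95% binomial intervals. The non-dividing granule-stage share is 5.82% in KO against 16.1% in WT and 15.3% in Het, and the mature share is highest in KO at 37.3%. The mature class depends on Mmp8 and Mmp9 and has no cell-cycle limit.

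The KO share depended on how the rule treats Mmp8 and Mmp9. Mmp8 encodes neutrophil collagenase (chr9:7558456-7568485, GRCm38) and Mmp9 encodes gelatinase B, and the rule limits their sum. Without that limit, the barcodes that met the other 3 thresholds numbered 3698, 2461 and 2221, or 38.5%, 30.8% and 26.9% of all barcodes. The KO share on that count was 0.699 times WT (0.669 to 0.730) and 0.876 times Het (0.834 to 0.919), and Het was 0.799 times WT.

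In those barcodes the median Mmp8 level was 1719, 1858 and 5275 CPM, and the median Mmp9 level was 3290, 2099 and 2557 CPM. Mmp8 exceeded Mmp9 in 19.5% of them in WT, 46.6% in Het and 86.4% in KO. Of the barcodes that the limit on the sum removed, 712 of 2149, 906 of 1238 and 1446 of 1741 had less than 4000 CPM of Mmp9. With a limit on Mmp9 alone, an alternative chosen after seeing the data, the members were 2261, 2129 and 1926. The KO share was then 0.992 times WT (0.940 to 1.05) and 0.878 times Het (0.832 to 0.926). The number of cells at this stage in KO and their Mmp8 content cannot be told apart from these shares.

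**Figure D2:**
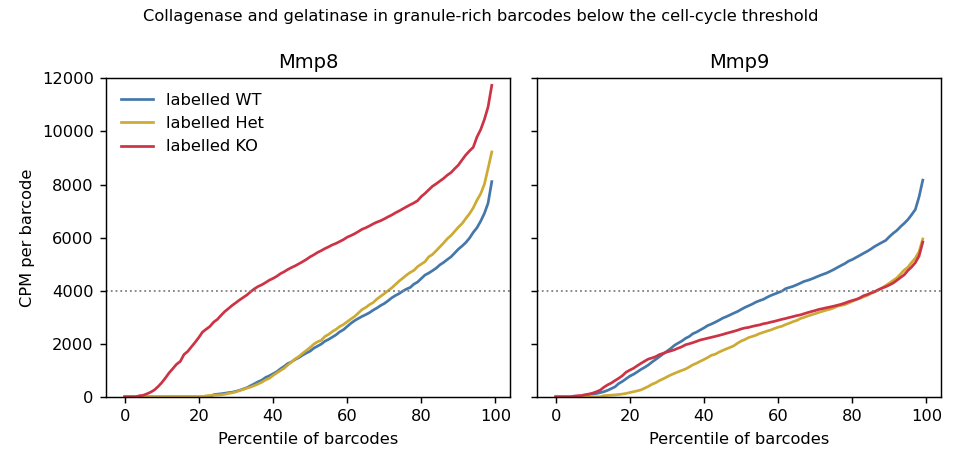
Lines give CPM per barcode (y axis) at each percentile from 0 to 99 (x axis) of the granule-rich barcodes that met the other 3 thresholds, for Mmp8 and Mmp9 in each library. The dotted line marks 4000 CPM. The KO line for Mmp8 lies above the others, with a median of 5275 CPM, while the KO line for Mmp9 does not.

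Mmp8 belongs to the rule, which sorts barcodes into the classes, so its level by class is a description of the choice. Promyelocyte-like barcodes held 88.4, 58.0 and 146 CPM, dividing granule-stage barcodes 141, 179 and 605 CPM, members 276, 389 and 931 CPM, and mature barcodes 3695, 4417 and 5733 CPM. B-lineage barcodes, which should lack the gene, held 82.7, 41.3 and 224 CPM, so the promyelocyte-like values are near or below that background. Mmp9 in members was at 1018, 659 and 477 CPM, within the same limit on the sum.

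Across the class, 6728 of 19059 genes averaged 10 CPM or more over the libraries, with 30 UMIs or more in all. A gene was counted as apart in KO when its CPM differed at least 1.5-fold, in 1 direction, from both other libraries and both intervals left out equality. By that rule 196 genes (2.91%) were higher and 716 (10.6%) lower in KO. The same rule set WT apart for 190 higher (2.82%) and 171 lower genes (2.54%), and Het for 70 higher (1.04%) and 5 lower (0.0743%). The split of the KO genes depended on the scale. With TMM factors, which assume that most genes are unchanged, 602 of 6718 genes were higher and 362 lower. Of the genes apart, 62.4% were higher, against 21.5% on CPM. With each barcode thinned to 5000 UMIs, called equal depth below, 325 of 6572 genes were higher and 511 lower. The class was then chosen again on the thinned counts, with 1345, 1131 and 477 members. Counts for the gene lists below are to be read beside these. The median log2 ratio of all genes was -0.12 against WT and -0.11 against Het on CPM, and 0.12 and 0.13 with TMM.

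**Figure D3:**
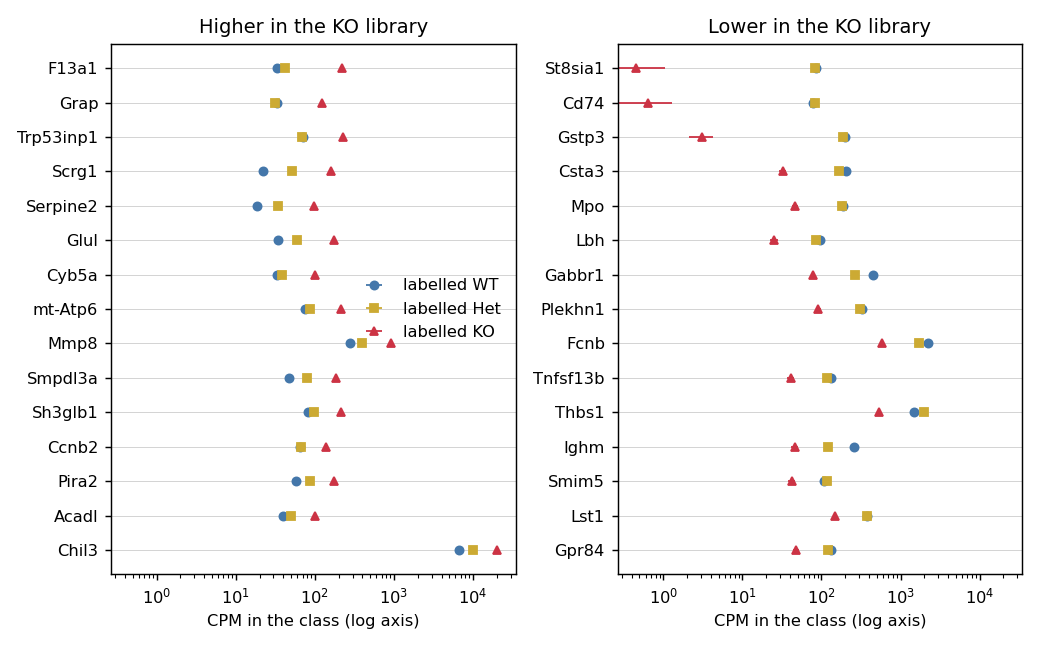
Points give CPM in the class (log x axis) with exact 95% Poisson intervals for the 15 genes furthest apart in KO in each direction, by the rule for named genes, in the libraries labelled WT, Het and KO. F13a1 at 223 CPM in KO lies furthest above the other libraries, and St8sia1 and Cd74 lie below 1 CPM in KO.

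Of 13 primary granule genes with enough UMIs, 4 were lower in KO and 0 higher, beside 10.6% and 2.91% of all genes. Of the 4, 2 belong to the rule. With each barcode thinned to 5000 UMIs, 2 were lower and 1 higher. Mpo (myeloperoxidase) was at 189, 183 and 46.4 CPM, 0.246 times WT (0.223 to 0.270). Its median per member was 0 CPM in each library, and a UMI of it was found in 39.3%, 36.5% and 19.8% of members, so the sums come from a minority of barcodes. Ctsg (cathepsin G) was at 19.3, 22.2 and 6.24 CPM. Elane (neutrophil elastase) and Prtn3 (proteinase 3) were also lower, at 15.9 and 69.0 CPM in KO, but both were limited by the rule. Prtn3 was not lower than Het once cells were thinned to equal depth. The median log2 ratio of the list was -0.12 against WT and -0.27 against Het on CPM, beside -0.12 and -0.11 for all genes, and 0.12 against WT with TMM.

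Outside the rule, 2 of 23 secondary granule genes were higher in KO and 0 lower, beside 2.91% and 10.6% of all genes. With TMM 6 were higher and 0 lower, beside 602 and 362 of all 6718 genes. The 3 genes of the rule are given as a description of the choice. Camp stood at 37021, 27415 and 20464 CPM, Ltf at 25580, 26246 and 19856 CPM and Ngp at 53619, 56418 and 59929 CPM.

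Chil3 was 1 of the 2 higher genes. It stood at 6714, 10105 and 20265 CPM, 3.02 times WT and 2.01 times Het (1.99 to 2.02), while Het was 1.51 times WT. The median member held 5845, 9413 and 20108 CPM, and the middle of the KO distribution (14468 to 25903 CPM, lower to upper quartile) lay above the upper quartile of Het at 14128 CPM. Wfdc21, a small whey-acidic-protein family member, was at 1899, 1805 and 2893 CPM. Lcn2, which binds bacterial siderophores, was at 14911, 20644 and 29297 CPM and missed the 1.5-fold rule against Het. Both Chil3 and Lcn2 also stepped up from WT to Het, so part of the distance from WT was present without the KO library.

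The other 21 genes did not pass. Lyz2 (lysozyme) was at 8391, 8545 and 5849 CPM and Anxa1 (annexin A1) at 6382, 6408 and 4721 CPM, within 1.5-fold of both other libraries. Cd177 was highest in Het, at 563 CPM. The list's median log2 ratio was 0.20 against WT and -0.08 against Het, and with TMM 0.44 and 0.16, so its direction against Het depended on the scale.

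Of 24 tertiary granule and late genes, 3 were higher in KO, of which Mmp8 belongs to the rule, and 1 was lower, beside 2.91% and 10.6% of all genes. Fpr2 (a formyl peptide receptor) was at 797, 1042 and 1798 CPM. Ifitm6, an interferon-induced transmembrane family member, was at 2347, 4653 and 7620 CPM. G0s2, an inhibitor of triglyceride lipase, was lower at 120, 104 and 47.7 CPM. Retnlg (resistin-like gamma), a usual marker of maturation, was at 1850, 2208 and 2505 CPM and did not pass.

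Genes of extracellular trap formation were lower in KO for 5 of 8 genes and higher for 0, beside 10.6% and 2.91% of all genes. Their median log2 ratio was -0.88 against WT and -0.76 against Het. With TMM 4 were lower. At equal depth of 5000 UMIs 3 were lower, and 3 with Elane and Prtn3 below 2000 CPM. Padi4 was at 0.464 times WT (0.442 to 0.486) and 0.529 times Het (0.505 to 0.554), and the median member held 404, 362 and 167 CPM. H1f0, a linker histone, was at 354, 488 and 145 CPM. Mpo and Elane belong to this list and to the primary granule list, and Elane also to the rule.

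Among 28 granulocyte transcription factors, 6 were lower in KO and 1 higher, beside 10.6% and 2.91% of all genes. Myc stood at 24.9, 47.1 and 7.59 CPM and Runx3 at 17.7, 18.6 and 9.31 CPM. Cebpa, the C/EBP factor of early granulocytes, was at 20.8, 20.7 and 11.1 CPM. At equal depth of 5000 UMIs, Runx3 and Cebpa were no longer apart in KO. Per1, a clock gene, was the higher gene at 25.01, 56.2 and 92.9 CPM. Irf8, which directs monocytes and B cells, was at 42.2, 20.0 and 5.78 CPM. B-lineage markers summed to 195, 86.0 and 24.2 CPM in the class and moved with Irf8, and their part in it was not tested.

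Of 15 genes for Myc, ribosome assembly and polyamine synthesis, 11 were lower in KO and 0 higher, beside 10.6% and 2.91% of all genes. The list's median log2 ratio was -1.42 against WT and -1.40 against Het, where Het against WT was 0.06. Nop16, a nucleolar assembly factor, was at 20.6, 17.5 and 2.44 CPM, or 0.118 times WT (0.0766 to 0.175). Nolc1 (a nucleolar phosphoprotein) was at 14.1, 18.3 and 3.98 CPM, and Nop2 (an rRNA methyltransferase) at 21.7, 18.3 and 5.42 CPM. Most of these transcripts were of low level. With TMM 9 were lower and 1 higher, and at equal depth 5 were lower and 0 higher, with medians of -0.63 and -0.55. Without the members that held 200 CPM or more of Mcm and Pcna transcripts, an alternative chosen after seeing the data, Myc was at 5.36, 7.28 and 0.412 CPM and Nop16 at 15.8, 11.7 and 1.92 CPM. Both, with Nolc1, Nop2 and Shmt2, then averaged under 10 CPM and left the comparison.

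Of 11 genes that ATF4 induces or that supply amino acids, 5 were lower in KO and 0 higher. Over all genes these shares were 10.6% and 2.91%. Atf4 itself was at 51.0, 59.0 and 19.8 CPM and Shmt2, a mitochondrial serine hydroxymethyltransferase, at 24.7, 25.9 and 6.596 CPM. Slc7a1, a cationic amino acid transporter, was at 17.8, 32.5 and 6.51 CPM. At equal depth of 5000 UMIs, Shmt2 and Slc7a1 were no longer apart in KO, while Atf4 stayed so. The median log2 ratio was -0.56 against WT and -1.36 against Het, and the gap between these came from Het, which stood 0.72 above WT. Het was set apart for 5 of the 11.

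Cell-cycle genes outside the rule differed in both directions. Cdkn1c, the inhibitor p57, stood at 2.19, 2.83 and 40.7 CPM, 18.6 times WT (12.98 to 27.5) and 14.4 times Het (10.9 to 19.4). A UMI of it was found in 1.48%, 2.70% and 23.1% of members, against 8.03%, 9.66% and 2.95% of B-lineage barcodes, at unequal depth. Ccnd2 (cyclin D2) ran the other way, at 19.8, 18.7 and 2.44 CPM. It was not apart at equal depth of 5000 UMIs, nor without members that held 200 CPM or more of Mcm and Pcna transcripts. With the limit on Mmp9 alone, Cdkn1c was at 1.92, 2.60 and 23.4 CPM and averaged under 10 CPM, so it left the comparison.

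Of 24 S-phase genes, 6 were lower in KO and 0 higher, beside 10.6% and 2.91% of all genes. Uhrf1, which maintains DNA methylation, was at 106, 98.9 and 57.1 CPM and Slbp, the histone mRNA binding protein, at 165, 146 and 88.2 CPM. With TMM 1 of the 24 was lower. At equal depth of 5000 UMIs 0 were lower and 1 higher, with medians of 0.04 and 0.01, and with the limit on Mmp9 alone 18 were lower. Of 8 mitosis genes with enough UMIs, 2 were higher, Ccnb2 (cyclin B2) at 65.3, 67.3 and 137 CPM and Ube2c at 14.9, 20.4 and 39.6 CPM. Another 3, Cdc20, Tpx2 and Hmmr, were lower, with Cdc20 at 23.2, 17.2 and 7.59 CPM. At equal depth 0 were lower and 4 higher, with medians of 0.51 and 0.60, against -0.43 and -0.31 without thinning. Members were chosen again at that depth, so for both lists depth cannot be told apart from membership.

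Mitochondrially encoded transcripts were higher in KO for 6 of 11 genes and lower for 1, beside 2.91% and 10.6% of all genes. Mt-Atp6, a subunit of the ATP synthase, was at 76.0, 86.0 and 212 CPM, 2.79 times WT (2.59 to 2.995). Mt-Nd1, a complex I subunit, was at 16.4, 31.6 and 75.2 CPM, and mt-Co1 (cytochrome oxidase) at 91.8, 106 and 198 CPM. Mt-Nd6, the one gene of the list on the other strand, was lower at 64.6, 26.5 and 14.5 CPM. All 13 summed to 677, 762 and 1295 CPM in members, to 845, 811 and 1894 CPM in dividing granule-stage barcodes and to 356, 378 and 1023 CPM in mature ones. A mitochondrial share is also read as a sign of cell quality, and that was not tested. Of 27 nuclear genes of the respiratory chain, 0 were higher and 1, Atp5e, was lower.

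**Figure D4:**
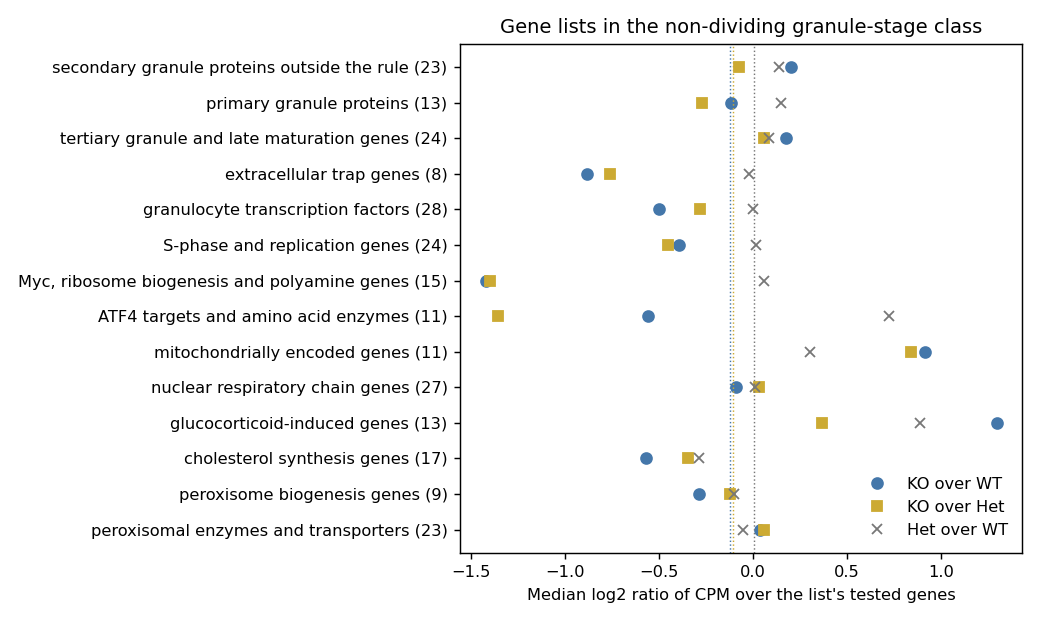
Points give the median log2 ratio of CPM (x axis) over the genes of each list with enough UMIs (number in brackets) for KO over WT, KO over Het and Het over WT. Dotted lines give the medians of all 6728 genes. Ribosome biogenesis lies lowest at -1.42 and -1.40, and the glucocorticoid list has Het on the same side as KO.

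Genes that glucocorticoids induce were higher in KO for 5 of 13 and lower for 0, beside 2.91% and 10.6% of all genes. Glul (glutamine synthetase) was at 33.9, 59.9 and 173 CPM, 5.10 times WT (4.62 to 5.64) and 2.89 times Het (2.68 to 3.11). Dusp1, a phosphatase of MAP kinases, was at 39.7, 102 and 175 CPM, and Il1r2, the decoy receptor of interleukin 1, at 37.2, 77.5 and 142 CPM. The median log2 ratio was 1.30 against WT but 0.37 against Het, with Het 0.89 above WT. Most of the distance from WT was thus present between the control libraries.

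Among peroxisome genes, 9 of 16 biogenesis genes and 23 of 38 enzymes and transporters had enough UMIs. Over all genes 2.91% were higher and 10.6% lower in KO. Of 9 biogenesis genes with enough UMIs, Pex2 was lower and Pex13, a membrane protein of the import machinery, was higher at 12.9, 12.1 and 22.2 CPM. Of 23 peroxisomal enzymes and transporters, 1 was lower, the processing protease Tysnd1, at 21.8, 17.3 and 10.9 CPM, and 0 were higher. At equal depth of 5000 UMIs, Pex13 and Tysnd1 were no longer apart in KO. Prdx5, a peroxiredoxin found in peroxisomes and mitochondria, was at 3383, 2523 and 1691 CPM and missed 1.5-fold by a little against Het. With TMM, 4 of the 23 enzymes and transporters were higher and 0 lower, beside 602 and 362 of all 6718 genes. Cholesterol synthesis genes were lower for 3 of 17, beside 10.6% of all genes. Among them was Srebf2, their transcriptional regulator, at 136, 100 and 63.5 CPM. That list's median log2 ratio was -0.57 against WT and -0.35 against Het, with Het 0.29 below WT.

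Secreted and surface genes were among those furthest apart. F13a1, the A chain of clotting factor XIII (chr13:36867178-37050244), stood at 32.8, 42.5 and 223 CPM, 6.81 times WT (6.17 to 7.52) and 5.26 times Het (4.86 to 5.69). A UMI of F13a1 was found in 8.97%, 20.1% and 71.3% of members, against 12.0%, 18.8% and 11.8% of B-lineage barcodes, at unequal depth. Summed F13a1 in B-lineage barcodes was 39.0, 35.8 and 141 CPM (132 to 151 in KO), so that background was also highest in KO. Scrg1, a small secreted protein, was at 22.3, 51.2 and 158 CPM. Trp53inp1, a p53-induced protein of autophagy, was at 71.5, 68.1 and 224 CPM with WT and Het nearly level. Grap, a signalling adaptor, was at 33.2, 31.7 and 123 CPM.

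On the lower side, Fcnb (ficolin B, a lectin of the complement pathway) was at 2207, 1723 and 590 CPM, 0.267 times WT (0.260 to 0.275). Thbs1 (thrombospondin 1) was at 1470, 2006 and 529 CPM and Gabbr1, a GABA-B receptor subunit, at 454, 267 and 78.3 CPM. Csta3, a stefin-family protease inhibitor whose close copies may share probes, was at 202, 166 and 32.5 CPM. Thbs1 showed no step down from WT to Het, whereas Gabbr1 did.

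Several transcripts were close to absent in KO. St8sia1, the sialyltransferase that makes ganglioside GD3 (chr6:142821545-142964452), gave 1240, 1659 and 5 UMIs, or 84.7, 83.7 and 0.452 CPM. Gstp3, a glutathione transferase with close copies (chr19:4057477-4059569), gave 199, 185 and 3.07 CPM. Fosb, an immediate early gene, gave 26.0, 12.2 and 0.542 CPM. These gaps were not particular to the class: over all barcodes St8sia1 was at 41.6, 36.6 and 0.596 CPM, Gstp3 at 113, 96.7 and 3.44 CPM and Fosb at 29.7, 14.8 and 0.859 CPM.

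Cd74, the invariant chain of antigen presentation, was different in that respect. It gave 78.6, 82.3 and 0.633 CPM in the class but 466, 657 and 1639 CPM in B-lineage barcodes, so KO cells of that lineage held it. A UMI of Cd74 was found in 123 of 1549, 94 of 1223 and 7 of 480 members. Ighm, the heavy chain of IgM, was at 257, 120 and 45.7 CPM in members and at 9850, 10062 and 16036 CPM in B-lineage barcodes. The sum of the 7 B-lineage markers, at 195, 86.0 and 24.2 CPM, and the share of B-lineage barcodes in a library moved with Ighm, and their part was not tested. Cd74 did not follow them from WT to Het.

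Members were spread along the last step of the rule. By Mmp8 and Mmp9 below 500, from 500 to below 2000, and from 2000 to below 4000 CPM, WT held 590, 454 and 505 members, Het 567, 355 and 301, and KO 173, 135 and 172. Between the highest and lowest of these bins, 42 genes (0.624%) were at least 2-fold higher in each library and 147 (2.18%) at least 2-fold lower. Fpr1, a formyl peptide receptor, ran from 86.1 to 381 CPM in WT, from 84.9 to 347 CPM in Het and from 67.0 to 270 CPM in KO. Mcm5, of the replicative helicase, ran from 186 to 33.3 CPM in WT, from 187 to 30.9 CPM in Het and from 175 to 22.5 CPM in KO. The lowest bin was thus where replication transcripts were held, in each library.

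The genes apart in KO were chosen on these same barcodes, so their values by bin are a description. Fcnb was lower at the later stage in each library and lower in KO in each bin, at 3415, 2397 and 905 CPM in the lowest and 1149, 876 and 361 CPM in the highest. Chil3 in the lowest bin was at 7698, 10789 and 21529 CPM and in the highest at 5284, 8437 and 19017 CPM. Thbs1 was higher at the later stage, at 2112, 2715 and 669 CPM in the highest bin.

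The stages on either side shared part of these differences. In dividing granule-stage barcodes, 180 of the 196 higher and 674 of the 716 lower genes met the same minimum. Of these, 116 and 344 were apart in KO on the same side. Over all 7166 genes compared in that class, 183 (2.55%) were higher and 504 (7.03%) lower. In mature barcodes 129 of 182 and 199 of 548 were, beside 1004 (15.6%) and 301 (4.68%) of all 6436 genes. In promyelocyte-like barcodes 108 of 183 and 249 of 662 were, beside 445 (5.26%) and 833 (9.84%) of all 8462 genes. Chil3 was higher in KO in each class, from 1350, 2431 and 8898 CPM in promyelocyte-like to 2580, 5084 and 14930 CPM in mature barcodes. Trp53inp1 was higher and Fcnb, Thbs1 and Padi4 lower in each of the 4 classes. Mpo was among the genes lower in KO members but not apart in dividing granule-stage barcodes, where it stood at 157, 133 and 203 CPM.

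Olfm4 was switched on or off in single members more than it was graded. With each barcode thinned to 5000 UMIs, and 104, 20 and 4 shallower members left out, 14.3%, 8.81% and 26.3% of the rest had no Olfm4 UMI. A further 3.11%, 2.24% and 2.73% had 5 to 24, while 50.2%, 43.5% and 49.6% had 25 to 74. A UMI of Olfm4 was found in 85.7% (83.8 to 87.4), 91.2% (89.4 to 92.7) and 73.7% (69.5 to 77.6) of members, and without thinning in 89.6%, 94.4% and 80.6%. B-lineage barcodes, at the same thinned depth, had a UMI in 49.8%, 32.9% and 23.3%, so background differed between libraries in the same sense as WT and KO. With at least 5 UMIs asked for, a limit chosen after seeing the data, the shares were 77.9%, 88.3% and 70.4%. The log2 ratio of summed Olfm4, KO over WT, was -0.22 on CPM, a distance that the change to TMM factors covers. KO, at 8557 CPM, stood further below Het, at 12955 CPM, than below WT, at 9958 CPM, so this covers the WT contrast only.

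**Figure D5:**
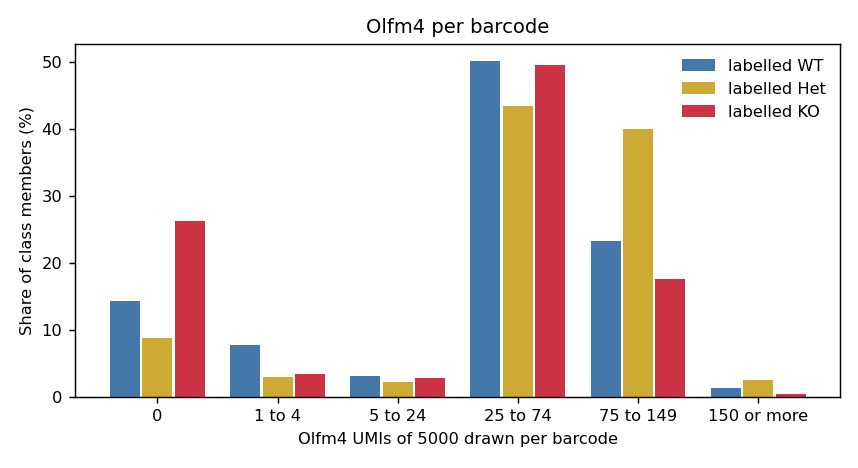
Bars give the share of members (percent, y axis) by Olfm4 UMIs among 5000 drawn per barcode (x axis) in each library. Few members lie at 5 to 24 UMIs, between those at 0 and those at 25 or more, and the bar at 0 is tallest in KO at 26.3%.

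Members with and without Olfm4 differed in few other genes. Of 6728 genes, 15 (0.223%), Olfm4 included, were at least 1.5-fold higher in positive members in each library and 6 (0.0892%) lower. At a mean of 50 CPM or more, Apoe (apolipoprotein E) was the one gene besides Olfm4. It was at 111, 105 and 71.2 CPM in positive and 8.70, 32.1 and 11.2 CPM in negative members. The negative values rest on 9, 17 and 7 UMIs. Positive means any Olfm4 UMI, which part of the B-lineage barcodes also had.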

How the data were processed

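UMI counts of 19059 genes per barcode were deposited as whole numbers, made by the authors with Cell Ranger 7.0.0 against mm10 per the submitters' processing notes. No further barcode filter was found in the labels. Members were taken by the 4 thresholds on CPM of each barcode's total. UMIs of members were summed per library (14635075, 19819520 and 11066956) and given as CPM, with Poisson intervals computed exactly. For ratios the intervals are conditional binomial, for shares Clopper-Pearson, and for ratios of shares log-normal, at 95%. UMIs are counted once per molecule, and all intervals cover counting error only. Log2 ratios have 0.5 added to each sum. No test was possible on 1 library per genotype.

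Genes named are, among those apart with a mean of 50 CPM or more and without sex-linked genes, the first 15 in each direction by the smaller log2 ratio, then the genes of the rule, 6 markers, Pex2 and up to 4 genes of each of 37 lists; genes shown along the Mmp bins, in B-lineage barcodes and for Olfm4, and further list members, were chosen after their values were seen. Members and lists were chosen with earlier results of these data known. Doublets, marked with Scrublet in scanpy 1.11.5, were kept and left out as an alternative. TMM (edgeR 4.0.16) and DESeq2 1.42.0 gave scaling factors only. B-lineage barcodes had at least 1000 CPM of Cd79a and Cd79b and less than 20000 CPM of granule genes. Sequences are from RefSeq (GRCm38.p6), where 5 of 5 genes looked up matched, and gene coordinates from GENCODE on GRCm38. Genes with close copies may share probes. The gene rule was tested on simulated data.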

Additional observations from a re-analysis of the deposited data

How the results depend on the processing

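Alternatives changed 1 choice at a time. The share ratios of KO moved with the Mmp limit: members' share of all barcodes was 0.324 times Het at Mmp8+Mmp9 below 2000 CPM. Below 8000 CPM, chosen after seeing the data, it was 0.503 times WT and 0.569 times Het, and of granule-stage barcodes 0.534 and 0.647. With Mmp9 alone, also chosen later, the values were 0.992, 0.878, 0.786 and 0.847. Other thresholds, thinning and doublet removal left these ratios within their intervals. With thinning the class was chosen again on the thinned counts, while the Olfm4 shares kept the members of the main choice. Genes higher in KO numbered 325 at equal depth of 5000 UMIs, 602 with TMM, 601 with DESeq2 factors, 295 without the 20 highest genes in the total and 296 with a minimum of 1 CPM. Genes lower in KO numbered 362 with TMM, 359 with DESeq2 factors and 1821 at 1 CPM; 196 higher and 362 lower genes were shared with TMM. Of 111 named genes apart in KO, 93 stayed so with TMM, 89 with Mmp9 alone, 84 with S-phase members left out and 82 at equal depth. Against WT, Prtn3 (0.28) and Tk1 (0.31) turned higher without S-phase members, Tpx2 (0.24) at equal depth, and Chit1 (-0.41) turned lower with Mmp9 alone. Against Het, Prtn3 was 0.45 at equal depth, 0.063 with Elane+Prtn3 below 2000 CPM and 0.26 without S-phase members, Tpx2 0.42 at equal depth and Tk1 0.64 without S-phase members (all log2). Olfm4-positive members in WT were 83.6% at 3000 UMIs, 80.1% at 2 UMIs and 77.9% at 5 UMIs, and in Het 88.9% at 2 and 88.3% at 5. The cause of these changes was not tested. No paired analysis was possible because each genotype has 1 library.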
